A study of Mus musculus with 48 samples.

Results

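The 2 ends of 1 RAG1/2 break were followed in arrested WT vAbl cells by HTGTS-JoinT-seq, an assay that amplifies outward from a fixed bait end and sequences what was joined to it. The break lay at Jκ1 of the mouse Igκ locus, and the bait was either its signal end (Jκ1SE) or its coding end (Jκ1CE). Members were defined by their labels, as genotype WT, treatment STI-571 with DMSO, and bait JK1SE or JK1CE. This gave 3 Jκ1SE and 3 Jκ1CE libraries of the 48 in the series. vAbl cells are a pro-B line transformed with the Abelson kinase, and blocking that kinase with STI-571 (3 µM, 4 days) arrests them in G0-G1 and induces RAG1/2. All of the 6 libraries came from genomic DNA of cells given both agents. The methods name a single WT clone, so no spread between WT lines could be measured. The labels number no replicates and do not say whether the Jκ1SE and Jκ1CE libraries came from the same cultures, so p-values refer to the spread between these libraries. Libraries are numbered 1 to 3 in the order of deposition, which pairs nothing. 2 other conditions of the same baits, cycling WT cells without STI-571 and Ku70-/- cells with STI-571 and DMSO, served for comparison, with 3 libraries per bait in each. The Vκ break sites were placed from 6 other Jκ1SE libraries of arrested WT cells, 3 given L67 (5 µM) and 3 L82-G17 (25 µM) with STI-571 (both compounds inhibit DNA ligases), whose usage is not analysed here.

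V(D)J recombination builds the light chain gene by joining a Vκ to a Jκ segment. RAG1/2 cuts between each segment and its recombination signal, a heptamer and a nonamer held apart by a spacer, and leaves a hairpin-sealed coding end and a blunt signal end. Hairpins must be opened before coding ends join, and opening off centre leaves short palindromic additions (P nucleotides), while terminal deoxynucleotidyl transferase can add bases that no template carries. Signal ends are known to join with little loss. Vκ segments that point the same way as Jκ1 rearrange by deletion (DEL), with the signal joint left on an excised circle. Segments that point the other way rearrange by inversion (INV), and both joints then stay in the chromosome.

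The bait break lay between positions 70672555 and 70672556 of chromosome 6 (mm9), at the 5′ edge of Igkj1. The Jκ1 sequence is shown because both baits read from it. Capitals mark the nonamer and the heptamer of its recombination signal, and the lower-case run after the heptamer is the coding end.
Igkj1 with its signal, chr6:70672517-70672593, + strand: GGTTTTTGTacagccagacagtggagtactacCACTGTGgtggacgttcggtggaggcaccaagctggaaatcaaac
The Vκ sequences below are some of those whose use differed between the baits or that shared an end with another site. Each begins with the last 20 bases of the coding end, and capitals mark the heptamer and the nonamer.
Igkv1-135, chr6:67560483-67560530, + strand: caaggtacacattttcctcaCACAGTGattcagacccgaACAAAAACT
Igkv16-104, chr6:68376047-68376094, + strand: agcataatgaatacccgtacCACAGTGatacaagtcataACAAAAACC
Igkv3-2, chr6:70649042-70649089, + strand: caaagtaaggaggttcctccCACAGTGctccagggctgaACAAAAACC
Igkv4-50, chr6:69650733-69650780, - strand: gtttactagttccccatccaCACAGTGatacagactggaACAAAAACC
Igkv4-70, chr6:69217854-69217901, - strand: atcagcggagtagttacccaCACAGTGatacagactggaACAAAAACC
Igkv4-69, chr6:69233760-69233807, - strand: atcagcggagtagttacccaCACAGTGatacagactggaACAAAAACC
Igkv8-16, chr6:70336638-70336685, - strand: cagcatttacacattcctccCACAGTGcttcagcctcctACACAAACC
site 70190420, chr6:70190393-70190440, - strand: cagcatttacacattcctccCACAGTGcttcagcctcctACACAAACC
site 68876650, chr6:68876630-68876676, + strand: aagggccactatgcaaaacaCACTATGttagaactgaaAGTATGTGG
Igkv4-70 and Igkv4-69 were alike over these 48 bases, as were Igkv8-16 and site 70190420. The - strand marks INV segments and the + strand DEL segments.

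The Jκ1SE libraries held 352630, 339201 and 339326 junctions and the Jκ1CE libraries 385847, 370032 and 370027, each from 500000 read pairs. Between 95.6 and 95.8% of Jκ1SE junctions and between 93.1 and 93.7% of Jκ1CE junctions fell at 128 Vκ break sites, 57 DEL and 71 INV. Of these sites 93 bordered the 3′ end of an annotated Vκ gene and 35 did not, and 107 had the consensus heptamer CACAGTG. The sites spanned 3.148 Mb, from position 67506211 to 70654172 of chromosome 6. Counting each combination of positions, strand and junction once left 1721 to 2320 Jκ1SE and 11114 to 11922 Jκ1CE junctions at Vκ sites. Jκ1SE libraries thus held fewer distinct structures. Nearly all Jκ1SE joints were untrimmed at both ends, so most reads of a site fall into 1 structure, and distinct counts of this bait weigh rare structures rather than use. On other chromosomes too, 464, 300 and 207 Jκ1SE junctions gave 47, 47 and 40 distinct ones. There 253, 284 and 334 Jκ1CE junctions gave 140, 159 and 155. Jκ1SE thus had more reads per distinct junction there as well, and the part of repeated reads in the distinct counts was not tested. Distinct counts are given below as another way of counting and support no share. Jκ1SE site counts also scattered more, with correlations across 119 sites of 0.885 to 0.924 against 0.972 to 0.990 for Jκ1CE on the log2 scale. Reads carried no molecular identifiers, so counts are reads and not cells, and intervals given here cover counting error only.

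Many Vκ sites took different shares of the Vκ junctions of each bait. Of 119 sites tested for usage (junctions per 1000 Vκ junctions of the library), 70 differed between baits at a Benjamini-Hochberg adjusted p of 0.05 in limma, or 58.8%. The other 9 sites held fewer than 50 junctions on average in both baits, and the tested ones held 99.9% or more of the Vκ junctions. Usage was higher from Jκ1SE at 31 sites (26.1%) and lower at 39 (32.8%). Usage is a share, so a gain at one site lowers the rest. The median difference over the 119 sites was -0.14 on the log2 scale, and -0.02 when libraries were scaled by the median of ratios, which gave 35 sites in each direction. Counting each distinct junction once gave 31 higher and 20 lower, and with the far end of the read also kept distinct 51 and 32, so which direction was commoner depended on how junctions were counted. The minimum of 50 junctions was met through Jκ1SE alone at 4 sites and through Jκ1CE alone at 4, and over the other 111 sites 28 were higher and 37 lower.

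**Figure D1:**
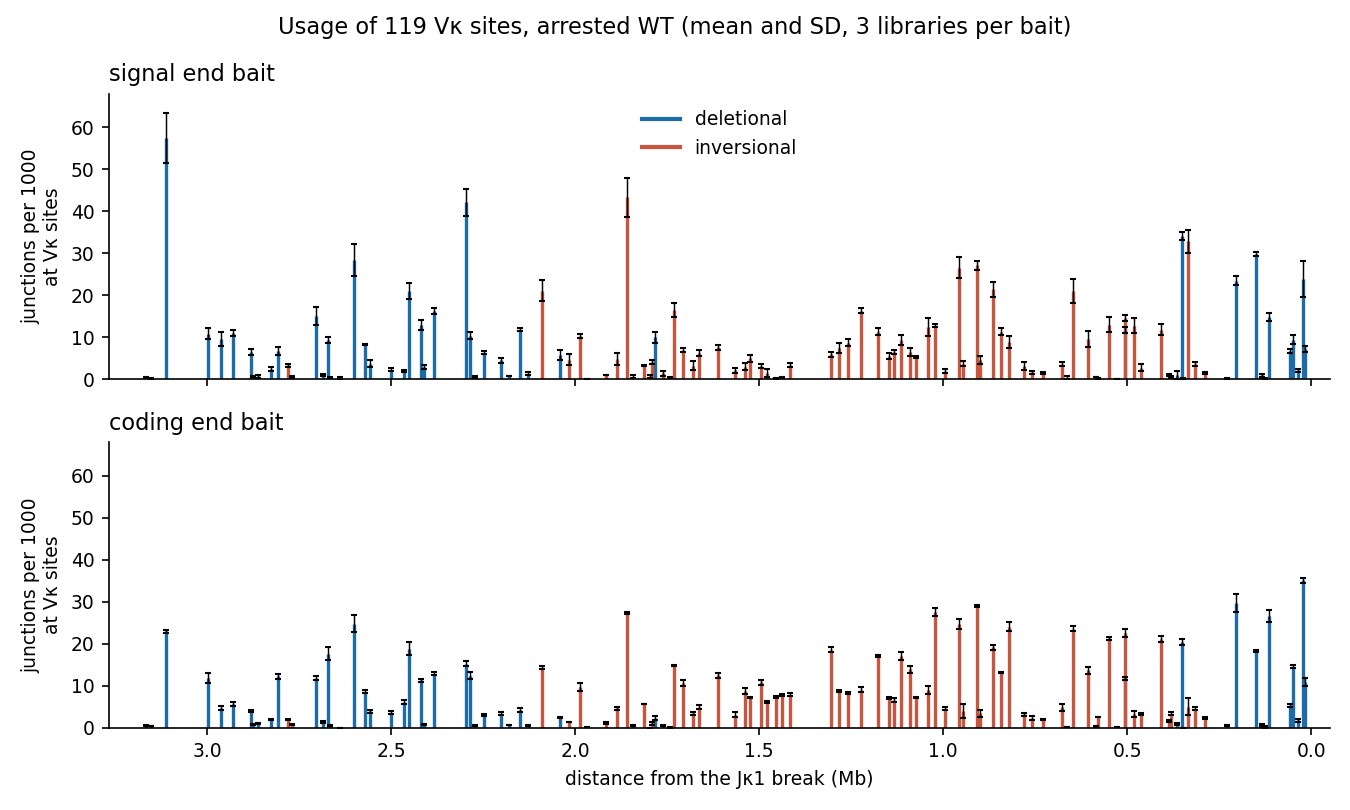
Usage of 119 Vκ sites from Jκ1SE (top) and Jκ1CE (bottom) in arrested WT cells. The x axis is the distance from the Jκ1 break in Mb, distal sites on the left, and the y axis is junctions per 1000 Vκ junctions, as the mean and SD of 3 libraries, with DEL and INV sites in different colours. The tallest Jκ1SE site is Igkv1-135 at 57.4, and the tallest Jκ1CE site is Igkv3-2 at 35.1, at the other end of the locus.

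The most used gene from Jκ1SE was Igkv1-135, a DEL gene 3112.053 kb from Jκ1. It took 56.4, 52.0 and 63.7 junctions per 1000 from Jκ1SE and 23.4, 22.8 and 22.7 from Jκ1CE, a log2 difference of 1.32 ± 0.10 (SE, adjusted p = 0.000247). The groups did not overlap, with 52.0 the lowest Jκ1SE and 23.4 the highest Jκ1CE value. Its coding flank has a copy at Igkv1-133 that is alike at 96.7% of 150 bases. Igkv16-104, the only member of its family here and also a distal DEL gene, took 45.7, 39.4 and 41.2 per 1000 from Jκ1SE against 15.1, 14.7 and 15.9 (log2 difference 1.46 ± 0.09, adjusted p = 0.000187). Neither flank of Igkv16-104 had a copy elsewhere in the genome at 95% identity or more. Igkv1-88, an INV gene in the middle of the locus, took 46.8, 45.1 and 38.1 per 1000 from Jκ1SE and 27.5, 27.6 and 27.1 from Jκ1CE (0.66 ± 0.10, adjusted p = 0.00255). Igkv6-17, DEL and 350.568 kb from Jκ1, took 34.0, 35.0 and 33.1 against 19.9, 20.2 and 21.2 (0.74 ± 0.08, adjusted p = 0.00054). Counting each distinct junction once gave Igkv6-17 a log2 difference of -0.16 and left Igkv1-88 at 0.33, neither past the threshold.

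The genes most used from Jκ1CE lay nearer or pointed the other way. Igkv3-2, DEL and 23.494 kb from Jκ1, took 34.9, 34.6 and 35.8 per 1000 from Jκ1CE but 28.7, 22.5 and 20.5 from Jκ1SE, a log2 difference of -0.57 ± 0.14 (adjusted p = 0.0156). This call was lost without Jκ1CE library 3 (adjusted p = 0.0583), and the difference was 0.40 with each distinct junction counted once. Igkv4-50, an INV gene, took 27.9, 28.2 and 26.4 per 1000 from Jκ1CE and 13.1, 12.9 and 12.3 from Jκ1SE (-1.11 ± 0.08, adjusted p = 0.000216). The lowest Jκ1CE value was 26.4 and the highest Jκ1SE value 13.1. Igkv3-12 differed by -0.34 ± 0.09 (adjusted p = 0.0208), a call that was lost without Jκ1SE library 1 or Jκ1CE library 2 or 3 (adjusted p = 0.0507, 0.0819 and 0.0906). Igkv12-44 took 27.1 ± 1.11 per 1000 from Jκ1SE and 29.0 ± 0.21 from Jκ1CE (SD, n = 3) and was not called (adjusted p = 0.284). Of these genes Igkv6-17, Igkv3-2, Igkv4-50 and Igkv12-44 had a flank with a copy at 95% identity or more, none of them near-identical.

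DEL and INV sites differed in how often each bait met them. Of 53 DEL sites 20 were higher and 11 lower from Jκ1SE, with a median log2 difference of 0.19. Of 66 INV sites 11 were higher and 28 lower, with a median of -0.37. The 20 include sites 68876650, 70322631 and 68929658, which passed the minimum number of junctions through Jκ1SE alone. The 11 include Igkv8-26 and site 67518928, which passed through Jκ1CE alone. The filter fixed the direction of these sites, so their calls do not bear on orientation. Over sites with no near-identical flank, 18 of 51 DEL sites were higher and 11 lower, and 8 of 55 INV sites were higher and 22 lower. These counts still hold sites whose direction was fixed. All of the counts stand beside 26.1% higher and 32.8% lower over all sites. DEL sites took 49.4, 48.5 and 49.3% of Vκ junctions from Jκ1SE and 40.4, 40.8 and 42.1% from Jκ1CE. The Jκ1SE share was higher by 7.99 percentage points with no overlap (exact two-sided permutation p = 0.1, the smallest that 3 against 3 libraries allow). The difference was 6.70 points over sites with no copy of either flank. Much of it lay in a pair of DEL genes, Igkv1-135 and Igkv16-104, and without them, as chosen after their values were seen, it was 4.71 points (43.4 against 38.7%).

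Jκ1SE junctions also reached farther. Vκ junctions lay on average 1452 ± 14.6 kb from the Jκ1 break with Jκ1SE and 1296 ± 6.72 kb with Jκ1CE (SD, n = 3, exact permutation p = 0.1). The difference of 156 kb was 309 kb over sites with no flank copy, 70.4 kb without Igkv1-135 and Igkv16-104, and 75.8 kb with each distinct junction counted once. Between 2 and 2.5 Mb from Jκ1, 10 of 16 sites were higher and 1 lower from Jκ1SE, and these sites together took 16.4% of Jκ1SE and 10.8% of Jκ1CE junctions. Between 1 and 1.5 Mb, where all 17 sites are INV, 2 were higher and 12 lower, with 11.7% of Jκ1SE and 19.01% of Jκ1CE junctions. The interval counts given here stand beside 26.1% higher and 32.8% lower over all sites. DEL sites within 0.5 Mb took 15.4% of Jκ1SE and 16.5% of Jκ1CE junctions, with 5 of 14 higher and 5 lower. The higher ones include site 70322631, which passed the minimum through Jκ1SE alone, so its direction was fixed. DEL sites between 2 and 2.5 Mb took 13.9% of Jκ1SE and 9.26% of Jκ1CE junctions, with 8 of 14 higher and 1 lower. DEL sites from 2.5 to 3.2 Mb took 17.5% against 13.9%, with 4 of 20 higher, 4 lower and a median log2 difference of -0.10. Most of this gain was in Igkv1-135, since the other 19 sites took 11.8% against 11.6%. The 4 lower sites there include site 67518928, which passed the minimum through Jκ1CE alone. INV sites were lower from Jκ1SE between 0.5 and 1 Mb (17.5 against 21.9%) and between 1 and 1.5 Mb, but not in every interval. They took 6.72% of Jκ1SE and 4.53% of Jκ1CE junctions within 0.5 Mb, 11.98 and 11.6% between 1.5 and 2 Mb, and 2.58 and 1.56% between 2 and 2.5 Mb, where both of 2 sites were higher. Within 0.5 Mb, the 6 INV sites with no near-identical flank took 2.11 and 3.36%, with none higher and 4 lower. Most DEL sites lay near Jκ1 or in the distal part and most INV sites between them, so orientation went along with distance, and no test compared the orientations at equal distance.

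**Figure D2:**
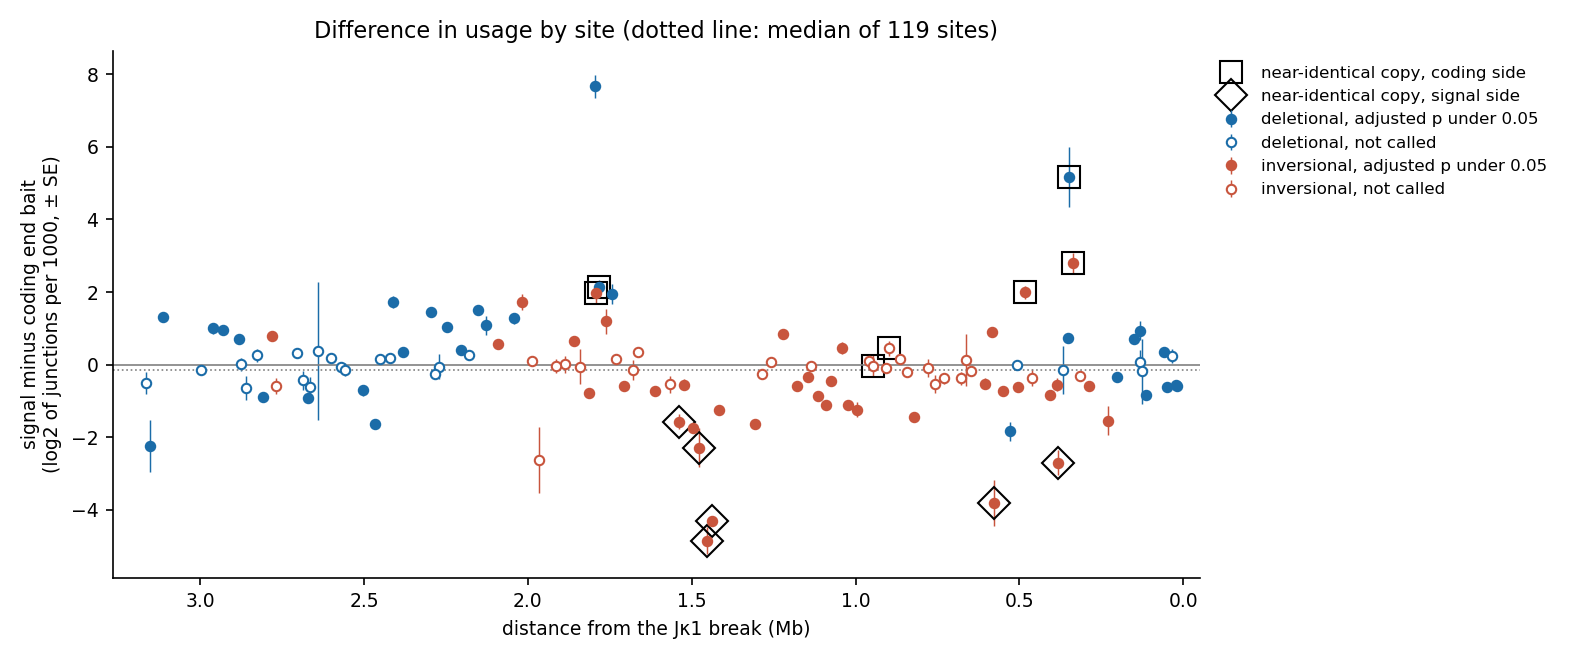
Log2 difference in usage, Jκ1SE minus Jκ1CE, of 119 Vκ sites against distance from the Jκ1 break in Mb. Points are sites with their SE, filled where the adjusted p was under 0.05, coloured by orientation, and black outlines mark sites whose coding or signal side has a near-identical copy; the dotted line is the median of -0.14. The outlined sites include most of those farthest from 0.

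Among Igkv families, the 8 sites of family 1 took 18.6% of Jκ1SE and 12.3% of Jκ1CE junctions, with 3 sites higher from Jκ1SE and none lower. The 23 sites of family 4, all INV, took 13.5% against 21.6%, with 1 higher and 15 lower. Over the 19 of them with no near-identical flank, 1 was higher and 11 lower. Family 8 had 1 of 9 sites higher and 7 lower, and family 3, all DEL, had 1 of 8 higher and 5 lower. The 7 include Igkv8-26, which passed the minimum through Jκ1CE alone. Over the 6 sites of family 8 with no near-identical flank, 0 were higher and 5 lower, Igkv8-26 among them. Family 12 had 1 of 6 higher and none lower. These counts stand beside the backgrounds of 26.1% higher and 32.8% lower over all sites. The 3 pseudogene sites were not called in either direction. Sites without an annotated gene took 10.6 ± 0.67% of Jκ1SE and 9.55 ± 0.07% of Jκ1CE junctions (SD, n = 3), and 12 of the 27 tested were higher and 4 lower. Such sites were placed from Jκ1SE junctions with no gene to name them, so their counts are a description. Of the 21 that reached the minimum of 50 junctions in both baits, 9 were higher and 3 lower. Sites without the consensus heptamer took 8.86 ± 0.52 and 9.70 ± 0.10%, and this order turned when each distinct junction was counted once (10.8 against 8.52%).

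The sites farthest from 0 were mostly ones whose flank the genome holds more than once. A Jκ1SE read reaches the signal flank and a Jκ1CE read the coding flank, so a copy of 1 flank affects where only 1 of the baits can be placed. Of 6 sites with a near-identical signal flank (at least 99% of 150 bases), all 6 were lower from Jκ1SE, with 0.591% of Jκ1SE and 3.59% of Jκ1CE junctions. Over all sites 32.8% were lower. The 6 are copies of one another, Igkv4-70 of Igkv4-69, Igkv4-71 of Igkv4-74 and Igkv8-28 of Igkv8-19, so they are not separate observations. Igkv4-70 took 0.302, 0.139 and 0.373 per 1000 from Jκ1SE against 7.28, 7.55 and 7.03 from Jκ1CE, a log2 difference of -4.85 ± 0.37 (adjusted p = 0.000247), and Igkv4-69, whose signal flank is the same over all 150 bases, differed by -4.30. Igkv8-28, Igkv8-19 and Igkv4-71 differed by -3.81, -2.70 and -2.29. These 3 genes also had near-identical signal flanks.

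Of 7 sites with a near-identical coding flank, 5 were higher from Jκ1SE and none lower, beside 26.1% higher and 32.8% lower over all sites. The 7 took 6.83% of Jκ1SE and 1.90% of Jκ1CE junctions. These 5 include site 70322631, which passed the minimum through Jκ1SE alone, so its direction was fixed. Igkv8-16 took 30.1, 35.4 and 32.9 per 1000 from Jκ1SE and 7.25, 4.30 and 3.38 from Jκ1CE (2.79 ± 0.29, adjusted p = 0.00054). Its coding flank is identical to that of site 70190420, which differed by 1.99, and Igkv13-84 and site 68880262 are a pair of the same kind at 2.14 and 1.97. In this class a difference between baits therefore cannot be told apart from read placement. Of the 119 tested sites, 73 had a flank with a copy at 95% identity or more. At every site each bait also had its own primers and read its own flank, and the part of this in the other differences was not tested. In a fit over the 106 sites with no near-identical flank alone, 60 were called, 28 higher and 32 lower.

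Among the 46 tested sites with no flank copy, 11 were higher and 13 lower in a fit over these sites alone. Over all sites 26.1% were higher and 32.8% lower. The 46 include sites 68876650 and 68929658, which passed the minimum through Jκ1SE alone, and site 67518928, which passed through Jκ1CE alone. The direction of these was fixed by the filter. Sites named next were chosen after their values were seen. Igkv12-98, DEL, took 11.8 ± 0.32 per 1000 from Jκ1SE and 4.20 ± 0.42 from Jκ1CE (SD, n = 3), a log2 difference of 1.49 (adjusted p = 0.000216). Igkv14-111, DEL, took 2.01 ± 0.23 against 6.24 ± 0.46 (-1.64, adjusted p = 0.00024), so distal DEL genes were found in both directions. Igkv5-39, INV and without the consensus heptamer, took 8.88 ± 1.45 against 24.1 ± 1.10 (-1.45, adjusted p = 0.000479). Igkv5-48 differed by -1.24 and Igkv11-125 by -0.88.

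The rest of the named list follows. Site 68929658 and site 68262354 were higher from Jκ1SE by 1.95 and 1.73, and Igkv8-26 and Igkv4-72 lower by -1.84 and -1.75. Igkv4-72 took 3.24 ± 0.52 per 1000 from Jκ1SE and 10.8 ± 0.69 from Jκ1CE (SD, n = 3), and both of its flanks have a copy at 97.3% identity. Igkv8-26 rested on 25, 12 and 18 Jκ1SE and 73, 60 and 78 Jκ1CE junctions, so it passed the minimum through Jκ1CE alone, and its difference was 1.12 with each distinct junction counted once. Site 68929658 passed through Jκ1SE alone and site 67518928, described next, through Jκ1CE alone. Site 67518928 differed by -2.25 (adjusted p = 0.0397), with 102, 12 and 30 Jκ1SE junctions, and lost its call without any one of 5 libraries, all but Jκ1SE library 1 (adjusted p 0.0510 to 0.0991). Site 70322631 had 16, 141 and 31 Jκ1SE junctions and 1 from the 3 Jκ1CE libraries together, a ratio of shares of 200 with a 95% counting interval of 35.5 to 7955 (exact conditional method). Its coding flank has a near-identical copy. Since it was placed from Jκ1SE junctions and passed the minimum of 50 through Jκ1SE alone, it had to be higher from Jκ1SE, and the ratio is a description.

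Site 68876650 had 142, 156 and 311 Jκ1SE junctions against 0 in all Jκ1CE libraries of arrested WT. It too was placed from Jκ1SE junctions and passed the minimum through Jκ1SE alone, so its direction was fixed by how it was chosen. Its Jκ1SE usage was at least 72.4-fold higher against a floor of 3 junctions in each Jκ1CE library. All of these junctions lay on the coding side of the site as it was placed, so they counted as signal-to-coding joints. No joint of matched ends was found there, and whether RAG1/2 cut at this site was not tested. Its heptamer reads CACTATG, and its nonamer matches the consensus at 2 of 9 bases.

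The ends joined by the baits differed in how much they had lost. Matched joints, signal to signal or coding to coding, were trimmed at neither end in 96.2 to 96.4% of Jκ1SE joints and in 2.94 to 3.05% of Jκ1CE joints. Neither end was intact in 0.453 to 0.591% and 43.0 to 43.5%. The prey end was intact in 98.3 ± 0.03% of Jκ1SE joints and in 18.2 ± 0.21% of Jκ1CE joints, with a mean loss of 0.067 and 2.65 bases (SD of 0.002 and 0.022, n = 3). The Jκ1 end was intact in 97.1 ± 0.14 and 41.5 ± 0.23%, with mean losses of 0.077 and 1.24 bases. These shares are of joints whose ends could both be placed, 97.6 to 98.0% of matched joints. The Vκ alignment ran past the break, and was left out, in 1.82 to 2.28% of Jκ1SE and 1.26 to 1.41% of Jκ1CE joints, which for Jκ1SE is about as many as had a trimmed Vκ end. The baits did not overlap in any of the measures (exact permutation p = 0.1 each). The Jκ1 coding end had thus lost fewer bases than its Vκ partners, while both signal ends were nearly whole.

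Losses at coding ends were not spread evenly. At the Vκ coding end, 3 bases were lost in 29.3, 29.6 and 29.3% of joints, more often than 0 (18.04, 18.03 and 18.4%), 1 (17.2, 17.3 and 17.3%) or 2 (12.97, 12.7 and 12.6%). At the Jκ1 coding end, which begins GTGG, a loss of 2 bases (30.2, 30.3 and 30.6%) followed an intact end and came before a loss of 1 (14.7, 14.3 and 14.2%). The order of these lengths was the same in all 3 Jκ1CE libraries.

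**Figure D3:**
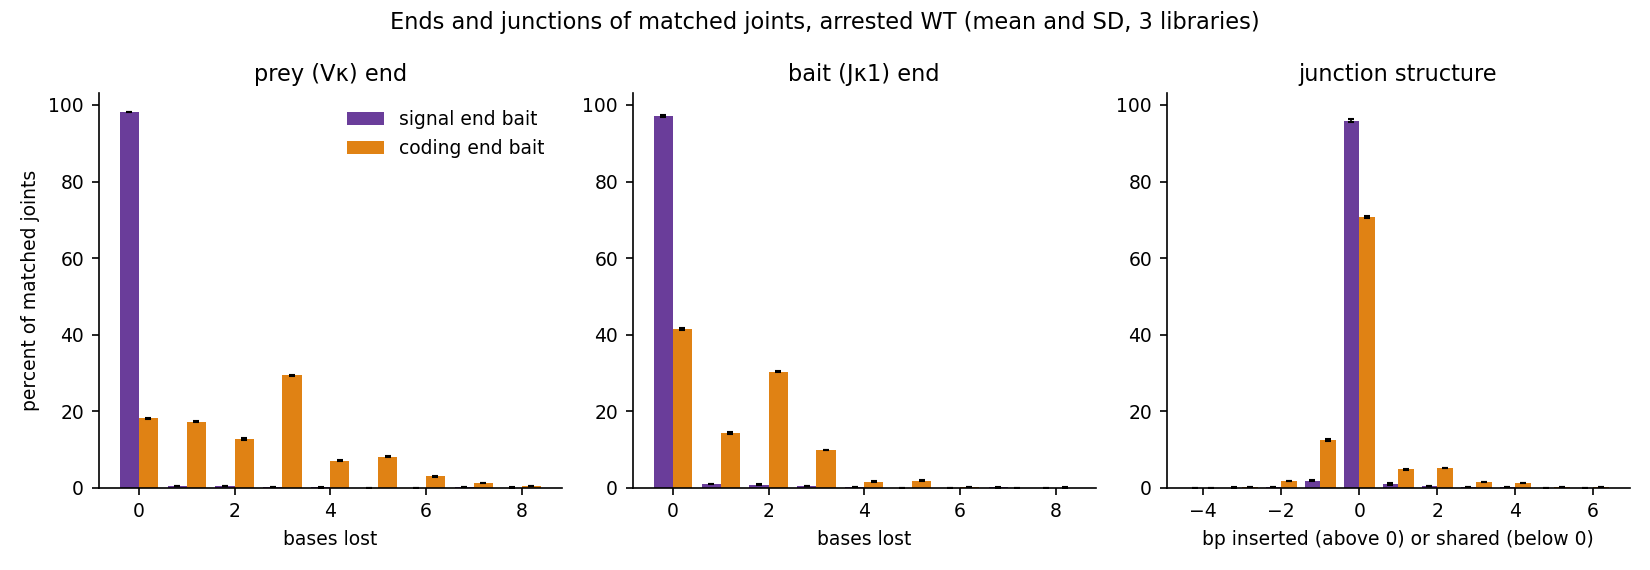
Bases lost at the Vκ end (left) and the Jκ1 end (middle), and bases inserted or shared at the junction (right), in percent of matched joints; bars are means and SDs of 3 Jκ1SE and 3 Jκ1CE libraries. Jκ1SE joints are almost all at 0 in each panel, while Jκ1CE joints peak at a loss of 3 bases at the Vκ end and show 70.7% direct joints.

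Trimming varied more between Vκ genes than between libraries. Over 92 sites with enough coding joints the intact share ran from 3.30 to 68.7% with a median of 16.7%, and the median SD between libraries was 1.88 points. Over 87 sites the signal end was intact in 92.9% (Igkv6-32) to 99.7% (Igkv9-124). The pairs of coding ends most and least often intact are printed to show the last bases before the heptamer.
Igkv8-27, chr6:70121775-70121822, - strand: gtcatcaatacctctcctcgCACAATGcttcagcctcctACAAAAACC
Igkv5-48, chr6:69676539-69676586, - strand: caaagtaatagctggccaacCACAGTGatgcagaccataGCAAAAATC
Igkv4-58, chr6:69450220-69450267, - strand: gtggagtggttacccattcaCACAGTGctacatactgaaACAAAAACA
site 69631399, chr6:69631372-69631419, - strand: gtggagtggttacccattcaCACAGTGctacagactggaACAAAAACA
Igkv8-27 kept its end whole in 68.03, 67.6 and 70.3% of coding joints, and 57.9% of its joints used microhomology. Igkv5-48 kept it in 59.7, 66.6 and 66.0%. Igkv4-58 kept it in 4.61, 2.85 and 4.18%, and site 69631399 in 4.18, 3.37 and 2.36%. Their signal ends were intact in 98.96% and 99.1% of Jκ1SE joints, so sites at the foot of the coding range were not at the foot of the signal range.

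By the last coding base, the median intact share was 9.30% over 31 sites ending in A, 16.98% over 53 ending in C, 34.5% over 6 ending in T and 57.3% over 2 ending in G. The 17 sites with the end ACCCA ranged from 3.93% (Igkv4-72) to 25.4% (Igkv4-70) with a median of 6.92%, and the 43 with the end CCTCC from 7.86 to 26.7% with a median of 16.7%, so sites with the same last 5 bases differed. Igkv1-135 also ends in A, after CCTC, and was intact in 32.0%. These sites share families and sequence, so the medians are a description. Bases shared at a junction counted as kept at both ends, and the Jκ1 coding end begins GTGG. The 2 sites ending in G, Igkv8-27 and site 68114918, had microhomology in 57.9 and 48.3% of coding joints. Among sites ending in C, Igkv16-104 had 64.6%. The part of microhomology in these medians was not tested.

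Junction structure followed the same split. Direct joints made up 95.9 ± 0.44% of matched Jκ1SE joints and 70.7 ± 0.34% of Jκ1CE joints. Insertions made up 1.86 ± 0.26 and 14.9 ± 0.15%, overlaps of 1 base 1.91 ± 0.18 and 12.4 ± 0.24%, and longer microhomology 0.351 ± 0.08 and 1.99 ± 0.02% (SD, n = 3, exact permutation p = 0.1 each). Longer microhomology turned to 6.72% against 2.99% when each distinct junction was counted once. Igkv16-104 stood out among the much-used genes, with microhomology in 64.6% of its coding joints and 0.443% of its signal joints. Its coding end CGTAC and the Jκ1 end share the bases GT.

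Insertions also differed in content. They numbered 5457, 6864 and 5670 in Jκ1SE libraries and 54142, 50734 and 50912 in Jκ1CE libraries, with a median length of 1 and 2 bases. G and C made up 35.1 to 41.1% of the bases inserted between signal ends and 53.3 to 53.8% between coding ends. P nucleotides are the reverse complement of an intact end. An insertion equal to the reverse complement of the adjoining bait or prey end, trimmed or not, was found in 18.4 to 24.4% of Jκ1SE and 63.3 to 65.1% of Jκ1CE insertions. Where the bait or the prey end was intact, the shares were 19.1 to 23.7% and 76.2 to 77.6%. In Jκ1CE libraries 48.2 to 49.8% matched the Jκ1 end and 16.3 to 17.04% the Vκ end. Short insertions match by chance more often than long ones, and among those of 3 bases or more the share was 0.958 to 3.25% against 40.6 to 45.8%.

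Hybrid joints, in which a signal end meets a coding end, were more frequent from Jκ1SE. They numbered 5611, 5396 and 6567 from Jκ1SE and 855, 630 and 737 from Jκ1CE, or 1.78 ± 0.21 and 0.211 ± 0.03% of Vκ junctions (SD, n = 3, exact permutation p = 0.1). Their Vκ end was intact in 14.3 to 20.0% from Jκ1SE, where it is a coding end, and in 23.97 to 34.3% from Jκ1CE, where it is a signal end. Direct hybrids made up 26.7 to 27.3 and 16.6 to 16.98%. The intact shares here are of all hybrids, with ends aligned past the break or losses over 20 bases counted as not intact. Those of matched joints left such ends out, so the shares were not set against each other. Distinct hybrid structures numbered 264 to 438 and 117 to 144.

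Outside the Vκ sites, the ends met different elements. Jκ1SE junctions were frequent at the coding side of RS, the recombining sequence whose use inactivates the locus, with 6.20, 6.08 and 7.52 per 1000 junctions, while Jκ1CE had 0.215, 0.227 and 0.200 at its signal side. RS and the Jκ segments carry signals of the same spacer class. The element in the Jκ-Cκ intron, a lone heptamer known as a partner of RS, had the opposite bias. Its coding side took 21.1, 21.5 and 20.9 per 1000 Jκ1CE junctions, and its signal side 2.43, 2.60 and 2.72 per 1000 Jκ1SE junctions. The groups did not overlap at either element. Both are printed here with the heptamer, and for RS the nonamer, in capitals.
RS, chr6:70701736-70701774, + strand: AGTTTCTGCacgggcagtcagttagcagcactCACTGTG
Jκ-Cκ intron heptamer, chr6:70675008-70675035, + strand: CACAGTGataggaacagagccactaatc

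Other Jκ segments were met in different amounts. From Jκ1SE the Igkj5 coding end took 5.13, 5.70 and 6.88 per 1000, Igkj4 3.20, 4.14 and 3.91, and Igkj1 itself 2.52, 1.95 and 1.81, which is rejoining of the break. From Jκ1CE the Igkj4 signal end took 8.93, 11.2 and 9.90 per 1000, Igkj5 2.87, 3.43 and 3.53, and Igkj1 1.66, 1.84 and 1.37. Igkj4 was thus the most met Jκ signal end from Jκ1CE, while Igkj5 was the Jκ coding end with the most reads from Jκ1SE. Distinct junctions gave no such order from Jκ1SE, with 49, 38 and 41 at the Igkj5 coding end, 39, 39 and 47 at Igkj4 and 55, 43 and 38 at Igkj1. From Jκ1CE the Igkj4 signal end kept the most, with 90, 90 and 93 distinct junctions against 57, 58 and 60 at Igkj5. The Igkj4 coding end also took 4.46 to 4.60 per 1000 from Jκ1CE. Igkj2 took 0.083 to 0.121 per 1000 at its coding end from Jκ1SE. Igkj3, whose heptamer reads TACAGTG, held 0 junctions at both ends in 5 libraries and 12 in Jκ1CE library 1; 0 allows up to 3.

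**Figure D4:**
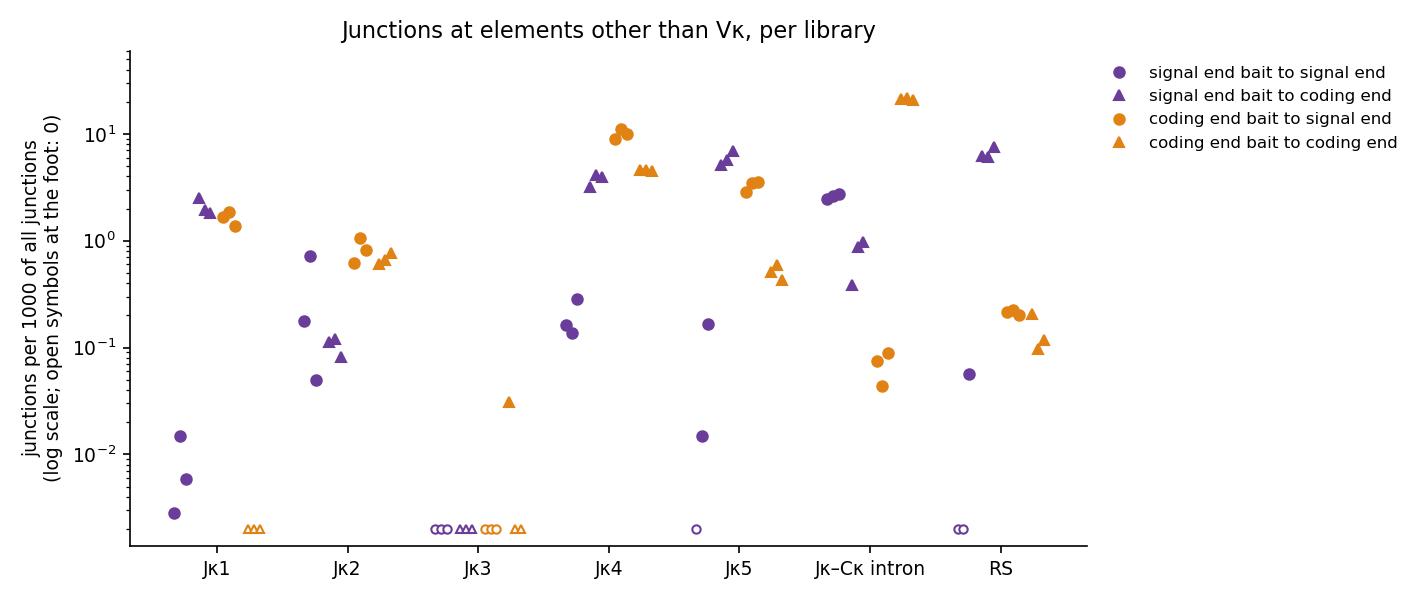
Junctions per 1000 of all junctions, on a log axis, at the Jκ segments, the Jκ-Cκ intron heptamer and RS, with 1 point per library and a symbol for each pair of bait and prey end; open symbols at the foot are 0. The Jκ1CE to coding points of the intron heptamer, 20.9 to 21.5, are the highest, and RS is met mostly from Jκ1SE.

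Within 2 kb of the break, Jκ1SE had 1.14, 1.33 and 1.34% of its junctions and Jκ1CE 2.98, 3.70 and 3.51% (exact permutation p = 0.1). In the Jκ1CE libraries 3759, 4811 and 4988 of these had bait and prey alignments that overlapped by more than 20 bases, most of them just past the 3′ end of Igkj2 with a median overlap of 46 bases, where the read matches both segments. Without them the difference fell from 2.12 to 0.916 points in size. With each distinct junction counted once it turned to 6.25% from Jκ1SE against 3.33%. In the gap between the last Vκ and Jκ1, 14 sites with CAC as their first bases took 1912 to 1986 Jκ1SE junctions per library, none at the coding side, and 1526 to 1877 Jκ1CE junctions at the coding side with 2 to 22 at the signal side. These sites were placed from signal-side junctions, so the side of their Jκ1SE junctions was fixed by that choice. Junctions in the Vκ region but away from every site numbered 4017, 3592 and 3400 from Jκ1SE and 646, 520 and 550 from Jκ1CE.

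Few junctions left the Igκ locus. Other chromosomes held 464, 300 and 207 junctions from Jκ1SE and 253, 284 and 334 from Jκ1CE, groups that overlapped (exact permutation p = 0.8). Without Jκ1SE library 1 the means were 254 and 290, the opposite order. Distinct junctions on other chromosomes numbered 47, 47 and 40 from Jκ1SE and 140, 159 and 155 from Jκ1CE, with no overlap. Tcra/Tcrd, the T cell receptor α and δ locus, held 269, 52 and 27 junctions from Jκ1SE, of 20, 5 and 9 distinct kinds, and 2, 0 and 2 from Jκ1CE. This was the receptor locus with the clearest separation. Igh, the heavy chain locus, held 31, 55 and 10 against 13, 13 and 16, and Igl, the λ light chain locus, 4, 0 and 0 against 6, 4 and 40. Tcrg and Tcrb held none in any of the 6 libraries, which allows up to 3 junctions in each. Chromosome 6 outside Igκ held 34, 136 and 60 against 82, 63 and 50 (exact permutation p = 0.9), and without Jκ1SE library 2 the means were 47.0 and 65.0. Over the 18 measures with 1 value per library, the baits did not overlap in 16, and the adjusted p ran from 0.113 to 0.9.

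The higher DEL share of Jκ1SE Vκ junctions was not found in the other conditions. In cycling WT cells DEL sites took 14.5, 13.3 and 13.6% of Jκ1SE and 40.4, 38.4 and 37.3% of Jκ1CE Vκ junctions. Against arrested WT the difference between baits moved by -32.9 points (exact permutation of baits within each condition, p = 0.005, the smallest possible, adjusted p = 0.01). This permutation takes the baits as alike in both conditions compared. It therefore does not test whether the differences between baits are equal. In arrested Ku70-/- cells the shares were 31.5, 32.9 and 35.1 against 38.2, 38.2 and 39.7%, and the difference moved by -13.5 points (exact permutation p = 0.005, adjusted p = 0.01). The Jκ1SE share was thus above that of Jκ1CE in arrested WT and below it in both others. Over sites with more than 3 junctions in a condition, the median log2 difference of DEL sites was -1.72 in cycling WT and -0.41 in Ku70-/-, and that of INV sites 0.28 and -0.01. Hybrid joints, which the DEL shares take in, made up 47.7, 47.4 and 47.9% of Vκ junctions from Jκ1SE in Ku70-/- cells. From Jκ1CE they made up 40.3, 32.7 and 33.0%. The difference moved by 10.8 points against arrested WT (exact permutation p = 0.1, adjusted p = 0.1). With the same sign in both and a far larger difference in Ku70-/-, this p could not be lower, so nothing is drawn from it.

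The Ku70-/- libraries numbered 1 stood apart from numbers 2 and 3, with correlations across sites of 0.728 to 0.757 to them, while 2 and 3 correlated at 0.958 and 0.973. Without both libraries numbered 1 the difference in DEL share moved by -12.95 points (exact permutation p = 0.0167 over 120 arrangements). The Ku70-/- cells also had at most 3 junctions over all 6 libraries at each of 5 neighbouring DEL sites near Jκ1, Igkv3-2, Igkv3-3, Igkv3-4, Gm16774 and Igkv3-7, of which the last 2 had none. Cycling WT libraries held 22602 to 32108 junctions, far fewer than the arrested ones, and the part of depth in these differences was not tested.

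**Figure D5:**
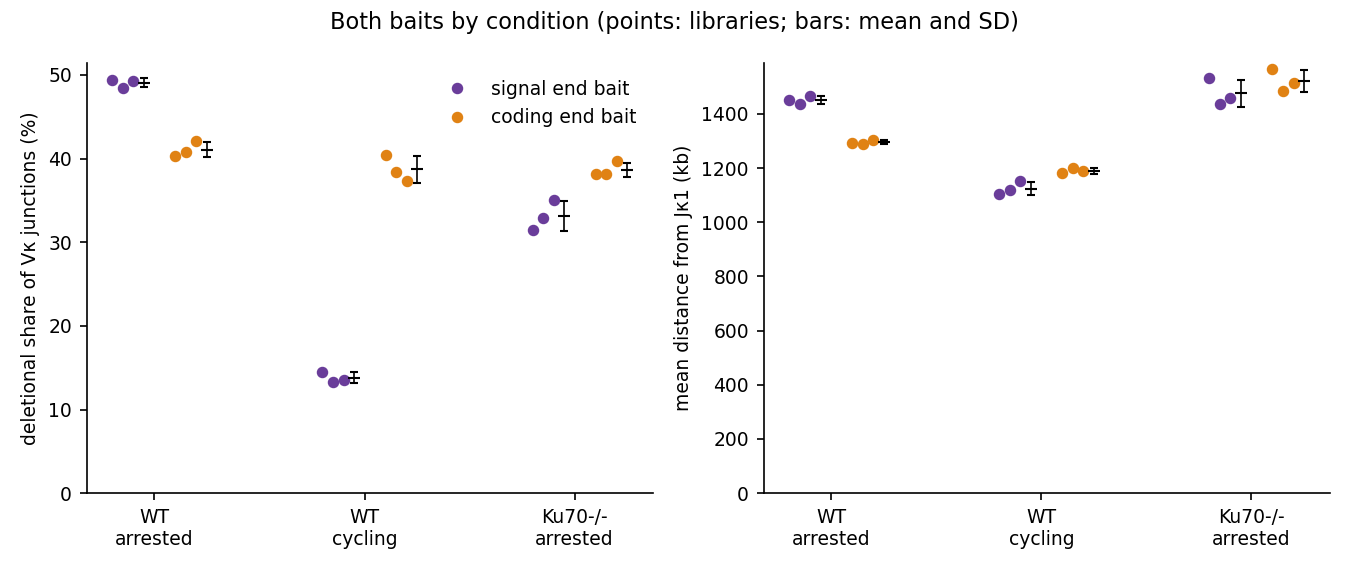
DEL share of Vκ junctions and mean distance from Jκ1 by bait in arrested WT, cycling WT and arrested Ku70-/- cells. Points are libraries, and bars are means and SDs of 3. Jκ1SE points lie above Jκ1CE points in the DEL share of arrested WT, at 49.1 against 41.1%, and below them in the other conditions.

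At single sites, the difference between baits in cycling WT departed from that in arrested WT at 13 of 119 sites (10.9%), 3 higher (2.52%) and 10 lower (8.4%). In Ku70-/- it departed at 4 sites (3.36%), 2 higher and 2 lower (1.68% each). The 2 lower ones were site 68876650 and site 70322631, which were tested only because of their Jκ1SE junctions in arrested WT, and both are also among the 10 lower in cycling WT. One fit gave both counts, and they rose to 31 and 12 without both Ku70-/- libraries numbered 1. In this limma fit of 18 libraries the arrested WT difference of Igkv16-104 itself had an adjusted p of 0.068, against 0.000187 in the fit of 6. That of Igkv4-50 stayed called (adjusted p = 0.030). The counts are thus not on the footing of the 58.8% called in arrested WT, and sites not called are not shown to be alike between conditions. Igkv1-135 took 9.89, 14.97 and 21.5 per 1000 Vκ junctions from Jκ1SE in cycling WT and 44.1, 44.99 and 39.4 from Jκ1CE, the reverse of its order in arrested cells. Igkv3-2 took 0.659, 1.11 and 4.03 against 28.7, 18.7 and 16.7. Igkv4-50, an INV gene, took 54.4, 42.8 and 49.1 against 32.2, 22.1 and 32.9, so it too changed its order, in the other direction. All comparisons with the other conditions share the 6 arrested WT libraries.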

How the data were processed

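The authors demultiplexed the reads, trimmed adapters, took each library to 500000 read pairs, aligned the pairs to mm9 (TranslocWrapper.pl, no removal of duplicates) and appended bait-region junctions. The submitters' processing notes name Bowtie2 and mm9, and versions are not given in the sources used here. The deposited files are lists of 1 junction per line, so the authors' values are positions, strands and alignment bounds (neither counts nor a score), and every count, percent and log2 value was computed here. Members and lists were chosen with earlier results of these data known.

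Vκ sites were placed from 6 arrested WT Jκ1SE libraries with L67 or L82-G17, ligase inhibitors (at least 30 junctions at a position in 3 or more libraries, CAC as next bases), and junctions went to the nearest site within 200 bp. mm9 is NCBIM37, annotated with GENCODE vM1, and biotypes came from RefSeq by symbol. An overlap of bait and prey on the read was microhomology, its bases counted as kept at both ends, and a gap an insertion. For matched joints, losses up to 20 bases were counted, leaving out ends aligned past the break. Receptor loci had margins of 10 kb. A site near a gene lay within 20 bp of its 3′ end, and trimming per site needed 300 ends. Flanks of 150 bases were searched with blastn 2.17.0.

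Usage was tested with limma 3.58.1 (R 4.3.3) on log2 of junctions per 1000 Vκ junctions, 1 junction added, for the 119 sites with a mean of at least 50 junctions in a bait, and the interaction with condition in 1 fit of 18 libraries. Single values were compared by exact two-sided permutation (20 splits), and between conditions over 400 arrangements of baits within each condition. Distances and shares used Python 3.11.15. Named sites are the 8 largest rises and 8 largest falls past an adjusted p of 0.05 without overlap, and the 4 most used per bait. On simulated data with 30 of 119 sites changed, the usage fit recovered 92% at a log2 size of 1.5 and 50% at 0.5. It also called 2.8 and 1.8 unchanged sites on average, and 0.6 when none was changed. Changes were drawn so that the total share stayed nearly the same. No file held columns of other samples. Alternatives were other windows and site sets, distinct junctions, single sequencing runs, scalings, pseudocounts, filters, a variance trend and leaving out each library.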

Additional observations from a re-analysis of the deposited data

Results flagged for a closer look

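The difference between baits (Jκ1SE minus Jκ1CE) departed from that of arrested WT cells in several measures. For the DEL share it departed by -32.9 points in cycling WT and by -13.5 points in arrested Ku70-/- (exact permutation, adjusted p = 0.01 each). For the mean distance it departed by -222 kb in cycling WT and -202 kb in Ku70-/- (adjusted p = 0.01 and 0.0225, exact permutation), and without both Ku70-/- libraries numbered 1 by -209 kb. For the hybrid share it departed by -1.75 points in cycling WT (exact permutation, adjusted p = 0.03). In Ku70-/- it departed by 10.8 points (exact permutation, adjusted p = 0.1), and by 13.2 without both libraries numbered 1. That p could not be lower with differences of these sizes, so nothing is drawn from it. In all of these measures the permutation exchanges baits within conditions and does not test whether the differences are equal.

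At single sites the log2 difference was tested as an interaction in limma. Igkv1-135 departed by -2.85, Igkv16-104 by -2.05, Igkv6-17 by -1.36 and Igkv3-2 by -3.23 in cycling WT. Igkv4-50 departed by 1.87 in cycling WT and 1.57 in Ku70-/-. Igkv4-70, whose signal flank has an identical copy, departed by 5.73 in Ku70-/- (0.41 in cycling WT, adjusted p = 0.83). In Ku70-/- it took 10.1, 8.52 and 5.20 per 1000 from Jκ1SE and 2.11, 6.56 and 5.11 from Jκ1CE. Site 68876650 departed by -7.36 in cycling WT and -10.3 in Ku70-/-, and site 70322631 by -4.86 and -5.64. Site 70322631 had no junction in any library of either condition and site 68876650 none in cycling WT. In the arrested WT Jκ1CE libraries they had 1 and 0, so none of these 4 values is a measure of size. Groups of 3 libraries are too small for a test of outlying libraries.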

How the results depend on the processing

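No paired analysis was possible because the labels give no replicate numbers. Of 486 alternative values for named sites 457 kept direction and call, and of 318 others 293 did. Counting each distinct junction once turned longer microhomology to 3.72 points higher from Jκ1SE, the Jκ region to 2.92, sites without the consensus heptamer to 2.29, translocations to -107 and chromosome 6 outside Igκ to -14. With the far end of the read also kept distinct these were 0.535 for the Jκ region, 1.19 for the heptamer, -109 and -17, and the share of the 10 most used sites fell from 7.41 to -0.0251. In the smaller sequencing run chromosome 6 outside Igκ was -3.67. Leaving out 1 library gave -36.8 to 91.7 for translocations and -18 to 33 for chromosome 6, with the lowest values without Jκ1SE library 1 and 2.

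With distinct junctions, Igkv8-26 turned to 1.12 (1.32 with far ends), Igkv6-17 to -0.16, Igkv3-2 to 0.40 and Igkv12-44 to 0.24, and Igkv12-44 to 0.0197 with median-of-ratios scaling. The 70 called sites were 24 among sites with no flank copy (11 higher, 13 lower), tested among fewer sites. Sites higher numbered 51 with far ends and 20 over annotated sites, and sites lower 20 with distinct junctions. Scaling to read pairs gave 27 higher and 46 lower. Leaving out 1 library gave 55 to 71 called sites, 24 to 32 higher and 31 to 43 lower. For cycling WT against arrested WT, the 13 sites became 7 to 20 when 1 Ku70-/- library was left out, and for Ku70-/- the 4 sites 3 to 6. Without both Ku70-/- libraries numbered 1, an alternative chosen after seeing the data as were those on flank copies, long overlaps and the pair Igkv1-135 and Igkv16-104, they were 31 and 12. Where no cause is named, the cause was not tested.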
